A study of Homo sapiens with 4 samples.

Results

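The 38 genes described here encode the core of the spliceosome outside the U2 particle, and were taken by name from lists of U1, Sm, U5, U4/U6, tri-snRNP, B complex, PRPF19 complex, helicase and second-step proteins. They are 38 of the 17761 genes with at least 1 long read over an annotated intron, and 658 of their 722 annotated introns were covered by a read in at least 1 sample, out of 209481 covered introns in all. The samples were 2 of K562 cells, an established human leukaemia line, with wild-type SF3B1 (WT) and 2 with the K700E substitution in SF3B1. Per the labels, expression of the modified allele was induced with doxycycline at 1 µg/ml and all 4 samples were harvested after 4 days. RNA bound to chromatin, which holds transcripts still being made, was sequenced as PacBio long reads after polyadenylated RNA and ribosomal RNA had been removed. The labels do not say whether the replicates came from separate cultures or clones, so the p-values below measure only the spread between these samples.

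The spliceosome is built anew on each intron: the U1 particle pairs with the 5′ splice site, the U2 particle with the branch site, and the U4/U6.U5 tri-snRNP then joins. The PRPF19 complex and a series of RNA helicases turn the assembled machine into its catalytic form, in which U6 and U5 hold the RNA and PRPF8 forms the scaffold of the active site. SF3B1 is part of the U2 particle and clamps the branch site, and K700E is a recurrent cancer mutation that makes it use other branch sites and upstream 3′ splice sites. The genes below are themselves interrupted by introns, and the question is how completely those introns had been removed in nascent RNA and how many nascent reads each gene had.

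The sequences below show the 3′ splice sites of 8 of these introns. Splice site sequence could be read for 42 of the 658 covered introns, those that lie inside an exon of another annotated transcript of GENCODE 29 (GRCh38); 41 of the 42 began with GT and 42 ended with AG. Most of those other transcripts are annotated as retaining an intron, so the readable introns may not be typical of the 658. The 8 shown were chosen after their values were seen, to span high and low removal. All lie within the coding span of the gene's main transcript, but the PRPF38B intron is not an intron of that transcript. Each line gives the last 40 bases of the intron, with the AG in capitals, and the first 3 bases of the exon that follows.
DHX8 intron 18, chr17:43517323-43520129, + strand: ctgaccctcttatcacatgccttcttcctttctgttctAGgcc
EFTUD2 intron 17, chr17:44860046-44860431, - strand: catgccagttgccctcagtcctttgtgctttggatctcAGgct
SNRNP200 intron 34, chr2:96281923-96283200, - strand: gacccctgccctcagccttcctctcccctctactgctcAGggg
PLRG1 intron 5, chr4:154545924-154546122, - strand: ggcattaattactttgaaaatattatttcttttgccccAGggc
RBM22 intron 5, chr5:150696706-150696790, - strand: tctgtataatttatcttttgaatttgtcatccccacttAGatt
PRPF38B 402-nt intron, chr1:108696338-108696739, + strand: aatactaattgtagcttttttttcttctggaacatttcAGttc
PRPF3 intron 13, chr1:150346137-150346407, + strand: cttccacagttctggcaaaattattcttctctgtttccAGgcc
DDX23 intron 6, chr12:48837658-48837941, - strand: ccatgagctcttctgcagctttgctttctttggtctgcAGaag

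Reads with the junction, over the 4 samples together, were 33 of 36 for the DHX8 intron, 28 of 29 for the EFTUD2 intron and 27 of 29 for the SNRNP200 intron. They were 22 of 35 for the PLRG1 intron and 10 of 27 for the RBM22 intron, and 0 of 90, 0 of 17 and 0 of 12 for the PRPF38B, PRPF3 and DDX23 introns. With 3 counts of the total as the limit, a count of 0 allows a share of up to 3.33%, 17.6% and 25.0%, respectively. Pyrimidines made up 90% of the 20 bases before the AG in DHX8 intron 18 and SNRNP200 intron 34, 75% in EFTUD2 intron 17, PLRG1 intron 5 and the PRPF38B intron, 80% in PRPF3 intron 13 and DDX23 intron 6, and 70% in RBM22 intron 5. The introns with no junction read had pyrimidine shares within the range of the others shown, and a relation to removal was not tested. The 5′ ends, with 3 exon bases first and the GT in capitals, were aagGTagaa for DHX8, gagGTatgt for PRPF38B, gggGTgagt for PRPF3 and tggGTttgt for DDX23.

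Depth set the limits of every value. Runs of 4 values below are in the order WT replicates 1 and 2, then K700E replicates 1 and 2. The tables held 1346733 and 1185006 read-intron overlaps in WT replicates 1 and 2, against 459681 and 909621 in K700E replicates 1 and 2, and 7717 introns reached 10 reads in K700E replicate 1 against 25166 to 34512 in the other samples. Of the erythroid markers, TFRC, the transferrin receptor, had 49 to 205 reads over its most covered intron, HBG1, a fetal globin, 3 to 88 and KLF1 none in any sample. The labels call the cells epithelial, but CDH1, which encodes E-cadherin, had 0, 0, 0 and 1 read and KRT18, a keratin, 2 to 14. The genotype itself was not analysed here. Splicing efficiency is the share of read-intron overlaps in which the intron had been removed, with one read counting once for each intron it spans. The 95% intervals are Wilson intervals. Where a count is 0, the limit given is 3 counts of the total. Both cover counting error only, since reads amplified by PCR are not independent molecules, and are too narrow where one read spans many introns.

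Of the 38 genes, 24 had at least 10 overlaps in every sample and could be compared for efficiency. The efficiency was lower in K700E for 15 and higher for 9, where 3172 and 1909 of all 5082 genes tested were. The median difference was -4.54 percentage points, against -2.54 over all genes tested. Both K700E samples lay below both WT samples for 8 of the 24, where 21.1% of all genes tested did so, and above for 3 of the 24, where 10.3% did. None of the 24 passed a false discovery rate of 0.05 by edgeR's quasi-likelihood test, as 0% of all genes did. Not 1 of the 24 had an unadjusted p under 0.05, where 170 of the 5082 did, and DESeq2 and limma-voom passed 0 of the 24 as well, with 2 and 0 at an unadjusted p under 0.05. The K700E samples differed in this, with a median difference from the WT mean of -6.83 points in replicate 1, the shallowest sample, and -0.27 points in K700E replicate 2. Over all genes tested these medians were -3.86 and -1.03 points, respectively. K700E replicate 2 on its own lay below both WT samples for 10 of the 24 (41.7%, against 34.8% of all genes) and above both for 7 (29.2%, against 26.5%).

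**Figure D1:**
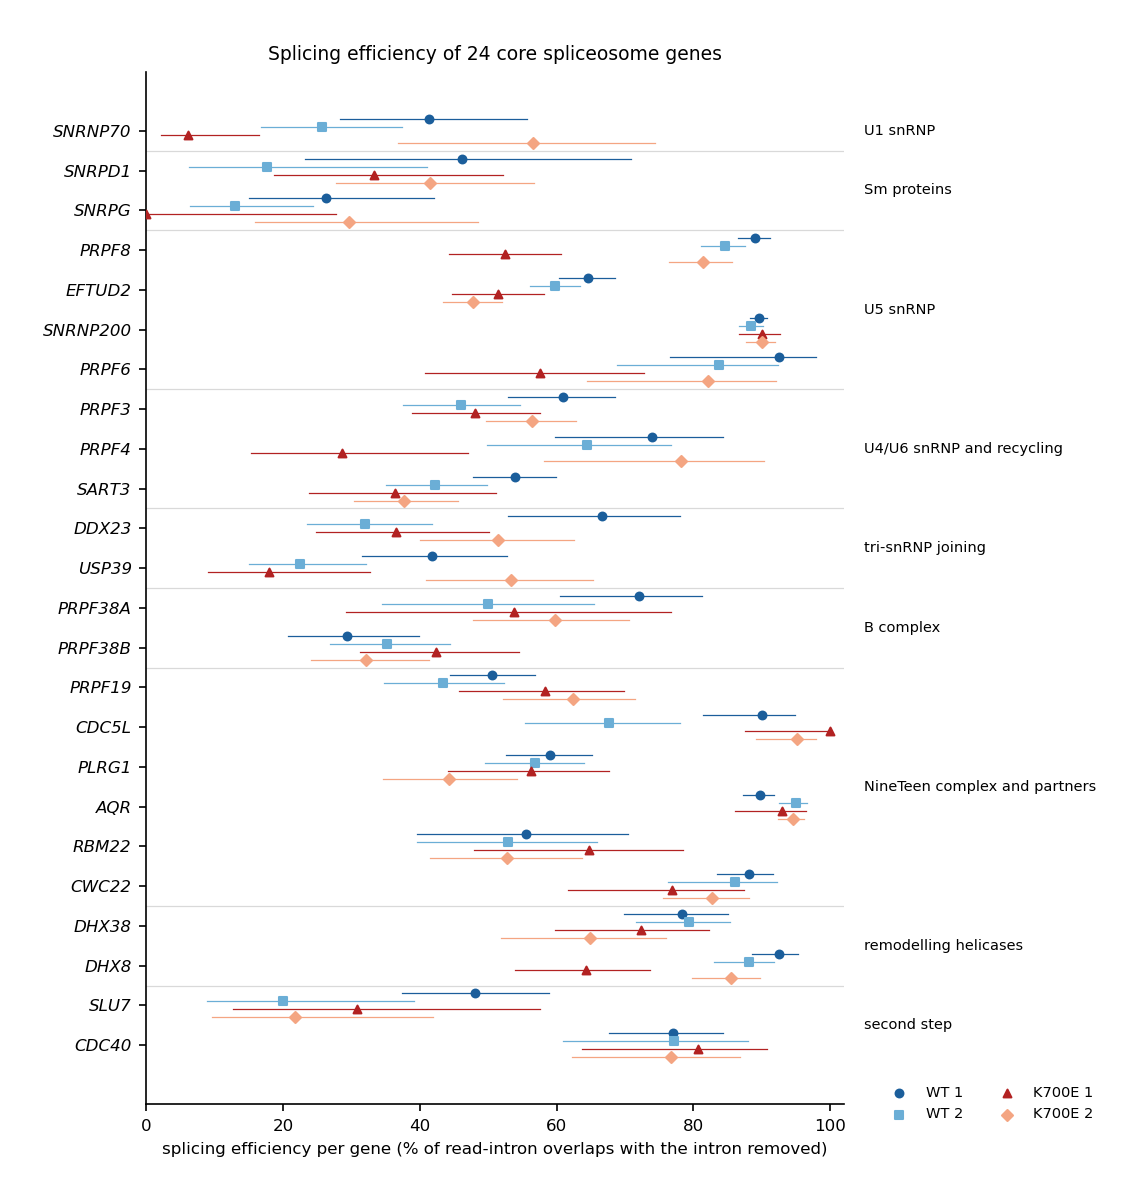
Splicing efficiency (x axis, percent of read-intron overlaps with the intron removed) of the 24 genes with at least 10 overlaps in every sample (y axis, grouped by role), 1 point per sample with its 95% Wilson interval. EFTUD2 is lower in both K700E samples (51.4% and 47.7%) than in both WT samples (64.6% and 59.8%), whereas SNRNP200 and AQR stay near 90% in all 4.

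The U5 particle, which aligns the exons, had the deepest coverage. EFTUD2, the GTPase of U5, had efficiencies of 64.6% and 59.8% (WT) against 51.4% and 47.7% (K700E), on 210 to 677 overlaps. The means were 62.2% ± 3.35 (SD, n = 2) and 49.6% ± 2.63 (SD, n = 2), a difference of -12.6 points with no overlap between the groups. In the edgeR fit its log2 odds ratio was -0.75 ± 0.35 (SE), with an unadjusted p of 0.0785 and an adjusted p of 1.0. These values count annotated alternative introns with few or no junction reads as well. Over the most used of overlapping introns, EFTUD2 stood at 90.8% and 93.8% (WT) against 74.5% and 82.8% (K700E), again without overlap.

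PRPF8, the scaffold of the catalytic centre, stood at 89.1% and 84.6% in WT, at 52.5% in K700E replicate 1 and at 81.5% in K700E replicate 2. The difference of -19.8 points (SD 3.19 in WT and 20.5 in K700E, n = 2 each) was -5.34 points without K700E replicate 1. PRPF6, which bridges U5 and U4/U6 in the tri-snRNP, had the same order, with 92.6% and 83.8% (WT) against 57.6% and 82.1% (K700E), on 27 to 37 overlaps. Without K700E replicate 1 the difference for PRPF6 was -6.05 points, against -18.3 points with it. In both genes the groups did not overlap, and K700E replicate 1 was the sample far from the other 3. SNRNP200, the helicase that unwinds U4 from U6, was the deepest gene, with 374 to 2343 overlaps, and stood at 89.6%, 88.5%, 90.1% and 90.1%. Both K700E values were above both WT values, by 1.02 points on average, but over the most used introns the groups overlapped (91.2%, 89.7%, 91.6% and 90.9%).

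Among proteins of U4/U6 and its recycling, SART3, which reassembles U4 with U6, had 53.9% and 42.3% (WT) against 36.4% and 37.7% (K700E). Both K700E values were below both WT values, with a difference of -11.1 points that was -5.25 points without WT replicate 1 and -16.9 points without WT replicate 2. PRPF3, which sits on the U4/U6 duplex, had 60.96%, 46.0%, 48.1% and 56.3%, and PRPF4, its partner, 73.9%, 64.4%, 28.6% and 78.3%. The groups overlapped for both. K700E replicate 1 was the lowest sample of PRPF4, and without it the difference turned from -15.8 to 9.08 points. PRPF31, another U4/U6 protein, had 1 read in all and no value to compare.

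DDX23 and USP39 serve the joining of the tri-snRNP, DDX23 as the helicase that releases U1. DDX23 had 66.7% and 32.0% (WT) against 36.5% and 51.4% (K700E). USP39 had 41.8% and 22.5% (WT) against 17.9% and 53.3% (K700E). The groups overlapped in both genes, with differences of -5.35 and 3.52 points. SART1, the third protein of this step, had 28, 23, 6 and 3 overlaps and was not tested.

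The B complex proteins PRPF38A and PRPF38B act just before activation. PRPF38A had 72.1%, 50%, 53.8% and 59.7%. PRPF38B had 29.4%, 35.1%, 42.4% and 32.1%. The groups overlapped for both genes.

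Of the 10 genes of the PRPF19 complex and its partners, 6 were tested, with 4 higher and 2 lower in K700E. Among all 5082 genes tested, 1909 were higher and 3172 lower. PRPF19, the ubiquitin ligase that names the complex, had 50.6% and 43.3% (WT) against 58.3% and 62.4% (K700E), 13.4 points higher without overlap. CDC5L, a structural subunit, had 90% and 67.7% (WT) against 100% and 95.2% (K700E), 18.7 points higher without overlap. Its log2 odds ratio was 2.75 ± 1.17 (SE), with an unadjusted p of 0.0567 and an adjusted p of 1.0 in edgeR's test. CDC5L had 27 to 104 overlaps a sample, and without WT replicate 2 the difference was 7.60 points.

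PLRG1, the WD40 partner of CDC5L, had 59.1% and 56.9% (WT) against 56.3% and 44.2% (K700E). CWC22, which couples splicing to the exon junction complex, had 88.2% and 86.1% (WT) against 76.9% and 82.7% (K700E). The groups did not overlap in either gene, but over the most used introns they did in both. The PLRG1 difference of -7.74 points was -1.72 points without K700E replicate 2, and the CWC22 difference of -7.31 points was -4.40 points without K700E replicate 1. AQR, a helicase that binds the intron, had 89.8%, 95.03%, 92.9% and 94.6%. RBM22, which contacts U6 and the 5′ splice site, had 55.6%, 52.9%, 64.7% and 52.7%. The groups overlapped for AQR and for RBM22. BCAS2, CRNKL1, SYF2 and XAB2 had too few overlaps in at least 1 sample, 2 to 39 each, and were not tested. XAB2, which binds the intron with AQR, was spliced in 12 of 13, 38 of 39, 9 of 9 and 31 of 31 overlaps, and BCAS2, a core subunit, in 8 of 18, 1 of 15, 4 of 6 and 16 of 22. CRNKL1 had 23, 26, 5 and 35 overlaps and SYF2 had 2, 6, 3 and 6.

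The helicases DHX38 and DHX8, which drive the second step and the release of the spliced RNA, were lower in both K700E samples. DHX38 had 78.4% and 79.4% (WT) against 72.4% and 64.9% (K700E), a difference of -10.2 points that was -6.47 points without K700E replicate 2. DHX8 had 92.6% and 88.2% (WT) against 64.4% and 85.5% (K700E), a difference of -15.4 points that was -4.88 points without K700E replicate 1. Over the most used introns the groups of DHX8 stayed apart and those of DHX38 overlapped. DHX16, which activates the spliceosome, had 1 to 13 overlaps and was not tested.

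Of the second-step factors, SLU7, which helps to choose the 3′ splice site, had 48.1%, 20.0%, 30.8% and 21.7%. CDC40 had 77.1%, 77.1%, 80.6% and 76.7%, the closest agreement between the WT samples of any tested gene. The U1 particle gave 1 tested gene, SNRNP70, the U1-70K protein, with 41.3%, 25.8%, 6.12% and 56.5%. Both the lowest and the highest value belonged to K700E. Of the Sm proteins, which form the ring of the snRNPs, SNRPD1 had 46.2%, 17.6%, 33.3% and 41.5% and SNRPG 26.3%, 13.0%, 0% and 29.6%, on 10 to 54 overlaps. The groups overlapped for both, and the 0% of SNRPG, 0 of 10 overlaps, allows a share of up to 30%. SNRPA and SNRPC of U1, and SNRPB, SNRPD2, SNRPD3, SNRPE and SNRPF of the Sm ring, stayed below 10 overlaps in at least 1 sample, SNRPD2 and SNRPD3 with none in WT replicate 1. Among them SNRPC, the U1 protein that steadies pairing with the 5′ splice site, was spliced in 0 of 5, 0 of 3, 2 of 24 and 8 of 24 overlaps. Its WT counts of 0 allow shares of up to 60% and 100%. SNRPA had 8, 26, 2 and 20 overlaps, SNRPE 20, 24, 4 and 55, and SNRPD3 0, 42, 17 and 30. SNRPD2 had 0, 13, 0 and 25, SNRPB 1, 5, 5 and 3, and SNRPF 5, 2, 1 and 1.

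Over the most used introns alone, 21 of the 38 genes could be tested. Of these, 5 had both K700E samples below both WT samples, 23.8% of them against 20.8% of all 4280 genes, and 2 above, 9.52% against 10.0%. The 5 were PRPF8, EFTUD2, PRPF6, SART3 and DHX8, and the 2 were PRPF19 and CDC5L.

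Counted intron by intron, 25 introns of 4 of the genes had at least 10 reads in every sample, 18 of them in SNRNP200, and 23 could be tested. The mean efficiency of the 25 was 83.3% and 80.4% (WT) against 86.9% and 81.7% (K700E), a difference of 2.38 points with overlapping groups. It was -0.24 points without K700E replicate 1, and -0.62 points over the 90 introns that reached 5 reads in all samples. Without SNRNP200 the other 7 introns gave 63.8%, 63.9%, 65.2% and 58.8%. These 7 include the 402-nt form of a PRPF38B intron, an annotated alternative with no junction read, at 0% in all 4 samples. Over all 6141 introns with as many reads the values were 65.5%, 63.6%, 61.8% and 63.8%. None of the 23 passed a false discovery rate of 0.05 in edgeR's test (smallest adjusted p 0.984), where 0.0982% of all 5093 introns passed. Their unadjusted p was under 0.05 for 0 of the 23 in edgeR and for 1 in limma-voom (EFTUD2 intron 6), and DESeq2 passed none of them.

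Both K700E samples lay below both WT samples for 4 of the 23 introns, where 19.9% of all tested introns did, and above for 7, where 9.19% did. All 7 of the higher introns are in SNRNP200, and reads of 1 molecule are shared among neighbouring introns there, so these are not 7 independent observations. Introns are numbered from the 5′ end of the gene. SNRNP200 intron 8, of 182 nt (chr2:96298421-96298602), had 75.2% and 85.5% (WT) against 95.5% and 90% (K700E). Intron 20 had 86.8% and 73.2% (WT) against 100% and 87.2% (K700E), and intron 21 had 71.1% and 88.5% (WT) against 90% and 92.3% (K700E). The differences were 12.4, 13.6 and 11.4 points, the largest among the 17 tested introns of the gene. Intron 15, with 6 reads in K700E replicate 1 and so not tested, had 81.9%, 82.6%, 50% and 73.7%. The 10 reads of intron 21 in K700E replicate 1 gave a 95% interval from 59.6% to 98.2%.

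Other introns of SNRNP200 ranged from nearly always removed to partly removed. Introns 7, 9, 10, 11 and 12, the most read of the gene besides intron 8, stood between 92.9% and 100% in all 4 samples, on up to 137 reads. The lowest were intron 23, with 80%, 60.7%, 80% and 68.2%, and intron 26, with 84.3%, 66.7%, 90% and 57.1%. Intron 4 had 85.7% and 96% in WT and 100% in both K700E samples, and intron 27 had 88.9% and 82.8% (WT) against 90% and 100% (K700E). Intron 17 was the 1 tested intron of the gene with both K700E values below both WT values, with 95.9% and 89.1% (WT) against 85.7% and 88.5% (K700E). Of the 17 SNRNP200 introns tested, 13 were higher in K700E and 4 were lower by their means. These introns share reads, so they are not independent observations. The median difference over all 5093 tested introns was -1.67 points. The junction that intron 8 leaves, with 30 bases of exon 8 and then 30 of exon 9 in capitals, is shown because that intron had one of the larger differences.
SNRNP200 exons 8 and 9: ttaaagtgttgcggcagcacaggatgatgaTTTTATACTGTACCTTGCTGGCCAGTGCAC

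EFTUD2 gave the opposite order. Introns 6 and 7, of 1370 and 1042 nt (chr17:44881723-44883092 and chr17:44880645-44881686), lie on both sides of a 36-nt exon, the seventh of the gene. Intron 6 had 96.3% and 100% (WT) against 90% and 83.3% (K700E), and intron 7 had 96.6% and 96.8% (WT) against 90.9% and 82.4% (K700E). Each was lower in both K700E samples, by 11.5 and 10.0 points, with unadjusted p-values of 0.160 and 0.248 and an adjusted p of 0.984 for both in edgeR's test. Of 13 EFTUD2 introns with at least 10 reads in both WT samples, 8 had both K700E samples below both WT samples, 0 had them above and 5 overlapped, on 3 to 11 reads in K700E replicate 1 and 10 to 21 in K700E replicate 2. Among all 15580 introns with that many WT reads and any K700E reads, 16.5% lay below and 9.84% above. By the same count PRPF8 had 6 of 17 introns below and 0 above, SNRNP200 3 of 29 below and 9 above, and AQR 0 of 18 below and 5 above. In K700E replicate 1 these introns had 1 to 7 reads in PRPF8, 3 to 22 in SNRNP200 and 1 to 7 in AQR. In K700E replicate 2 they had 1 to 14, 4 to 39 and 8 to 40 reads, respectively. Over all 99 introns of the 38 genes in this count, 21 lay below and 17 above. Neighbouring introns of a gene share reads, so the introns counted here are not independent observations. The short exon is printed in capitals between the last 30 bases of exon 6 and the first 30 of exon 8, since, among introns with 10 reads in every sample, its flanking introns had the largest differences without overlap outside SNRNP200.
EFTUD2 exons 6 to 8: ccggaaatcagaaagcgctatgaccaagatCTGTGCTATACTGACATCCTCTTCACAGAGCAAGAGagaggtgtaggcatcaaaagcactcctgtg

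PRPF3 intron 5 was the other intron of this kind, with 83.3% and 80% (WT) against 66.7% and 77.8% (K700E), on 10 to 18 reads. PRPF38B intron 2, of 272 nt, had 35.0%, 43.3%, 42.1% and 37.0%, and intron 3, of 82 nt, 43.3%, 55.6%, 66.7% and 45.2%. Neither separated the genotypes. The next intron of PRPF38B is annotated with 2 ends. Its 402-nt form, the least removed of the 25 introns, had 0 junction reads of 19, 30, 18 and 23, which allows up to 15.8%, 10.0%, 16.7% and 13.0%, and its 2266-nt form was covered in K700E replicate 2 alone, by 2 reads.

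**Figure D2:**
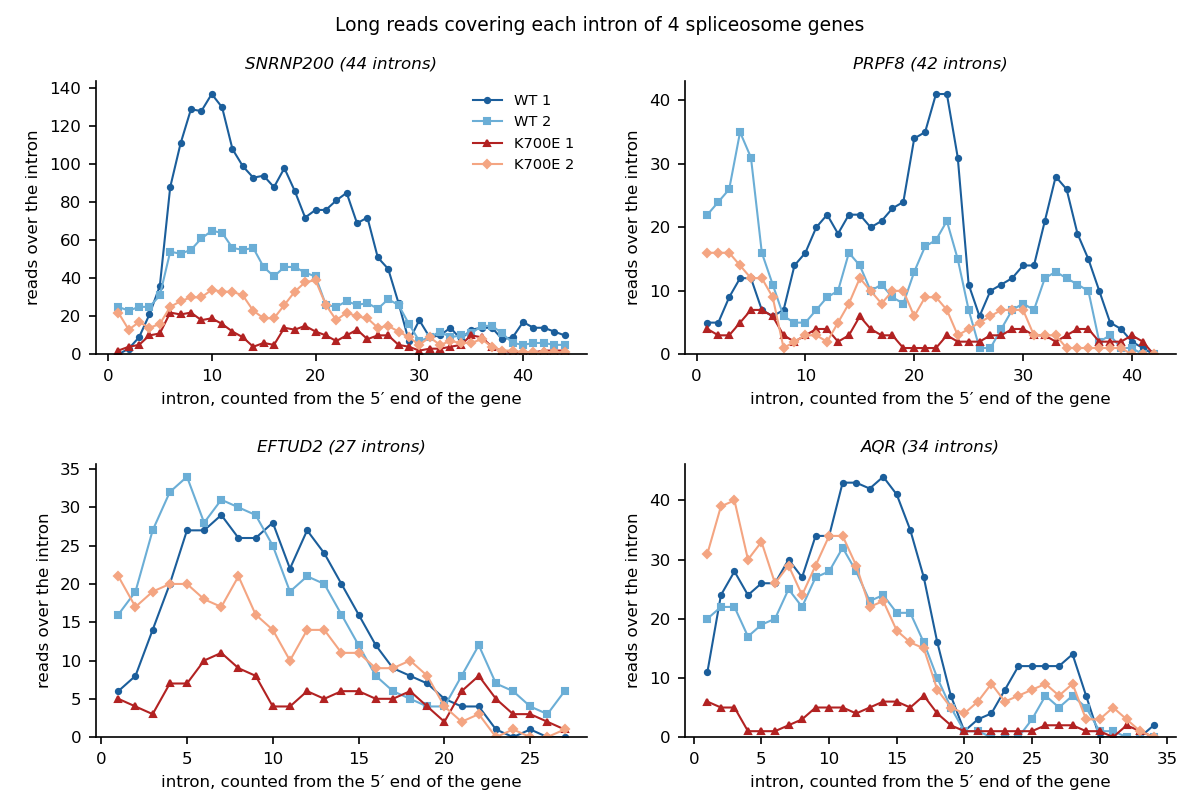
Reads over each intron (y axis) against its number from the 5′ end (x axis) in SNRNP200, PRPF8, EFTUD2 and AQR, 1 line per sample. Coverage peaks at different introns in different samples, as at intron 22 of PRPF8 in WT replicate 1 (41 reads) and intron 1 in K700E replicate 2 (16 reads), and is low at the 3′ end.

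The samples did not cover the genes alike. The first intron of SNRNP200 had 0, 25, 2 and 22 reads. The first intron of AQR had 11, 20, 6 and 31 reads, and that of PRPF8 had 5, 22, 4 and 16. The ratio of first to deepest intron was thus lower in WT replicate 1 than in WT replicate 2 in all 3 genes. In PRPF8, introns 19, 20, 21 and 22 were each covered by 1 read in K700E replicate 1, with no junction. The gene's value in that sample rests on 139 overlaps, with at most 7 reads over any one intron. The part that coverage played in the efficiency differences was not tested.

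With both WT samples as the only requirement, 99 introns of 10 genes had at least 10 reads each, of the most used. Their median efficiency was 92.3% in WT replicate 1 and 95% in WT replicate 2, against 94.1% and 90% over 15789 introns of all genes. By the mean of the WT samples, 85 of the 99 were over 80% removed (85.9%, against 74.0% of all) and 4 under 50% (4.04%, against 8.85%). The 4 were in PRPF19 and PRPF38B. The introns of AQR, of 1012 to 7853 nt, had WT means from 87.3% to 100%, and those of PRPF8, of 82 to 10927 nt, from 72.0% to 100%. The 6 introns of PRPF19 in this count, of 129 to 365 nt, ran from 41.8% to 95.5%, with a median of 59.9%.

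**Figure D3:**
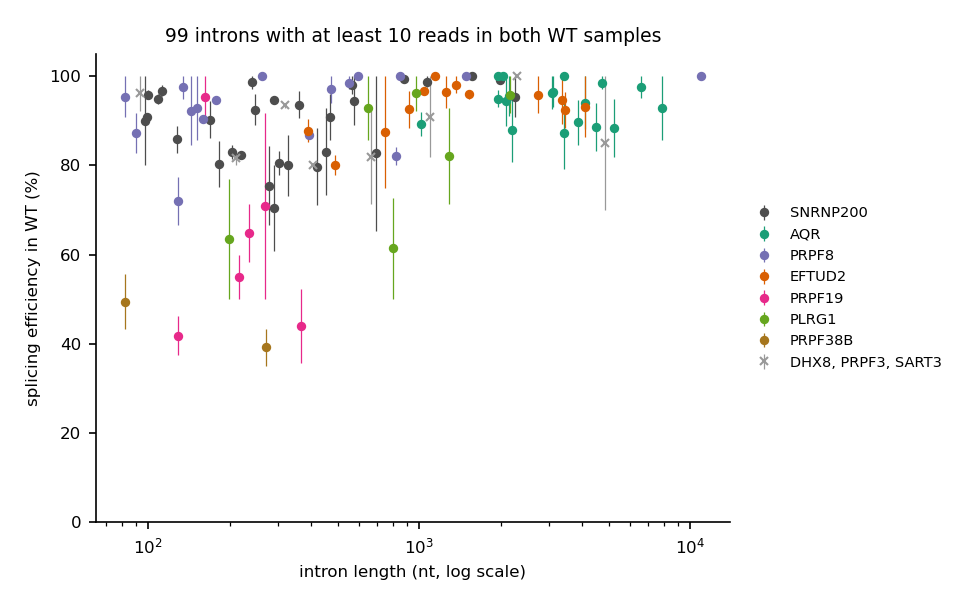
Mean WT splicing efficiency (y axis, percent) against intron length (x axis, nt, log scale) for 99 introns with at least 10 reads in both WT samples, 1 point per intron coloured by gene, bars from the lower to the higher WT sample. The lowest points, from 39.2%, belong to PRPF19 and PRPF38B, though other PRPF19 introns lie higher. Introns of similar length in PRPF8 and SNRNP200 lie above 70%.

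Among these 99, the 14 introns of at most 150 nt had a median WT efficiency of 91.6%, against 78.4% for 1661 introns of that length in all genes. They are mostly in SNRNP200 and PRPF8. Introns of similar length differed within and between genes. PRPF19 intron 7, of 129 nt, had 37.5% and 46.2% in WT and 66.7% in both K700E samples, on 3 and 9 reads. PRPF8 intron 16, of 134 nt, had 95% and 100% (WT) against 75.0% and 90% (K700E), on 4 and 10 reads. PRPF8 intron 5, also of 129 nt, had 66.7% and 77.4% (WT) against 71.4% and 100% (K700E), on 7 and 12 reads. PRPF19 intron 9, of 162 nt, had 100%, 90.9%, 100% and 80%, whereas PRPF19 intron 8, of 365 nt, had 52.2% and 35.7% (WT) against 75.0% and 87.5% (K700E), on 4 and 8 reads. PRPF19 intron 10, of 1277 nt, was removed in all 16 and 5 WT reads.

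Summed over all reads on the most used introns, last introns were less often removed than internal introns in all 4 samples, a difference that was not tested. Last introns of the 38 genes stood at 80.5%, 53.1%, 39.4% and 58.5%, on 33 to 49 overlaps, and over all genes at 50.9%, 36.9%, 29.5% and 35.6%. Internal introns stood at 88.3%, 84.7%, 75.1% and 85.5%, and first introns at 77.2%, 84.2%, 78.1% and 88.0%. By length, introns of 1 to 150 nt stood at 80.6%, 76.5%, 64.1% and 77.4%, and introns over 2000 nt at 91.8%, 88.8%, 74.5% and 90.8%. Without SNRNP200 the shortest class stood at 70.4%, 67.7%, 53.5% and 71.0%. Both K700E samples lay below both WT samples for introns over 150 and up to 500 nt (81.6%, 79.8%, 70.9% and 75.6%) and over 500 and up to 2000 nt (92.9%, 85.7%, 76.4% and 85.6%). In the latter class the groups overlapped without SNRNP200 (90.3%, 81.8%, 72.1% and 82.2%). Over all genes the groups overlapped in both of these classes, and K700E was lower without overlap in the class up to 150 nt (65.5%, 59.0%, 46.8% and 55.2%). K700E replicate 1 was the lowest sample in every length class, both in the 38 genes and over all genes.

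Alternative junctions were scarce. Of 198 pairs of introns that share a splice site, with the other sites at least 12 nt apart, 22 had junction reads for both members, and no pair reached 10 junction reads in every sample. The PRPF3 pair was chosen here with its values known. A 96-nt exon at chr1:150327557-150327652 lies inside an intron of its main transcript and belongs to an annotated transcript with no coding sequence. Reads joining the upstream exon to it numbered 1, 3, 2 and 13, and reads passing it 8, 4, 4 and 4. The share with the exon was therefore 11.1% and 42.9% in WT and 33.3% in K700E replicate 1, and 76.5% in K700E replicate 2 (95% interval 52.7% to 90.4%). Counted at its downstream junction, with 2, 3, 3 and 11 reads, the share was 20.0%, 42.9%, 42.9% and 73.3%. Only K700E replicate 2 had more reads with the exon than without it, and the K700E samples differed from each other by more than K700E replicate 1 did from either WT sample. The exon keeps the frame in length, with 96 bases, but read in the frame of the main transcript it holds 2 stop codons. The 2 forms are printed with 30 bases of each neighbouring exon, the exon itself in capitals.
PRPF3 with the exon: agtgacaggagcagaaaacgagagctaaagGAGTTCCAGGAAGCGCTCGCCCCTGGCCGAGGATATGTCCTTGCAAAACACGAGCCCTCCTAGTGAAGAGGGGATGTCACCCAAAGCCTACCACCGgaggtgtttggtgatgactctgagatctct
PRPF3 without the exon: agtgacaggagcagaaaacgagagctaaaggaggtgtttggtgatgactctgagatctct

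**Figure D4:**
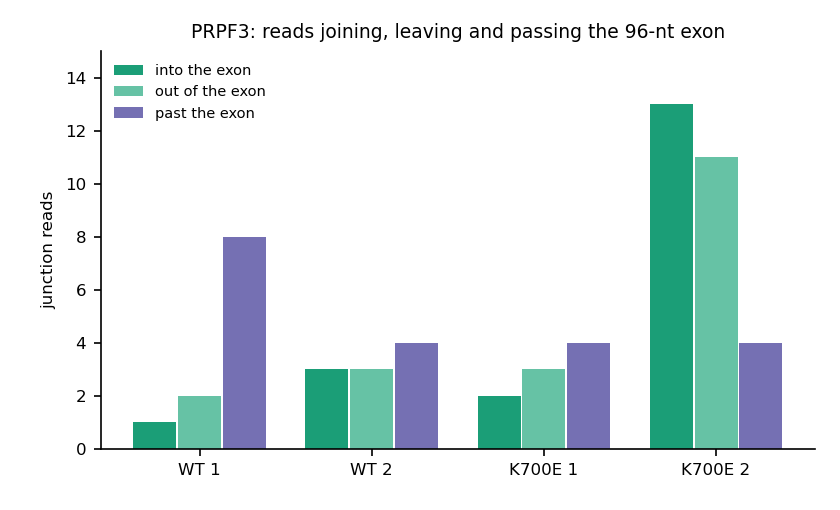
Junction reads (y axis) into, out of and past the 96-nt exon of PRPF3 in each sample (x axis), 1 bar per junction. K700E replicate 2 has 13 reads into the exon and 4 past it, and the other samples have 1 to 3 into it and 4 to 8 past it.

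AQR had a second such pair, 26 nt apart at the 5′ splice site of 1 intron and also chosen with its values known. The less used site (intron chr15:34904506-34906518) had 0, 0, 1 and 2 junction reads against 17, 10, 3 and 8 for the other. Its share was 0% in both WT samples, 25.0% in K700E replicate 1 and 20.0% in K700E replicate 2, with intervals from 4.56% to 69.9% and from 5.67% to 51.0% in the latter. Both K700E intervals reach below the 17.6% and 30% that the WT counts of 0 of 17 and 0 of 10 allow.

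Nascent reads per gene, taken as the highest read count over any one intron and normalised by library size (CPM with TMM factors), were compared for the 15 members that passed the filter on low counts. In these bulk libraries fewer cells and less RNA per cell cannot be told apart. None of the 15 passed in edgeR's test, as 0% of 3409 genes did, with 1 of the 15 and 220 of all genes at an unadjusted p under 0.05, and DESeq2 and limma-voom passed none of the 15. Both K700E samples lay above both WT samples for 5 members, where 18.3% of all genes did, and below for 4, where 17.9% did. The 15 had a median log2 difference of -0.08, against -0.04 over all genes.

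SNRPD1, one of the Sm proteins, had 28.1 and 42.8 CPM (WT) against 175 and 113 (K700E). Its fitted log2 fold change was 1.93 ± 0.74 (SE), 3.82-fold, with an unadjusted p of 0.0181 and an adjusted p of 0.736, on 3, 4, 7 and 9 reads. PRPF3 had 122 and 149.7 CPM (WT) against 299 and 263 (K700E), a log2 fold change of 1.03 ± 0.56 (SE). RBM22 had 56.1 and 85.5 (WT) against 125 and 150.1 (K700E), and CDC5L 103 and 107 (WT) against 125 and 250.1 (K700E). PRPF38B was the other gene with both K700E values above both WT values, at 281 and 385 (WT) against 599 and 388 (K700E).

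PRPF8 had 384 and 374 CPM (WT) against 175 and 200.1 (K700E), a log2 fold change of -0.997 ± 0.57 (SE) with an adjusted p of 0.792. SNRNP200 had 1282 and 695 (WT) against 549 and 488 (K700E), and the WT samples differed from each other by more than the second did from K700E. PLRG1 and DHX8 were the others with both K700E values below both WT values, PLRG1 at 168 and 149.7 (WT) against 125 and 125 (K700E) and DHX8 at 225 and 192 (WT) against 175 and 175 (K700E). For AQR, CWC22, EFTUD2, PRPF19, PRPF38A and SART3 the groups overlapped, with log2 fold changes from -0.63 to 0.44.

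**Figure D5:**
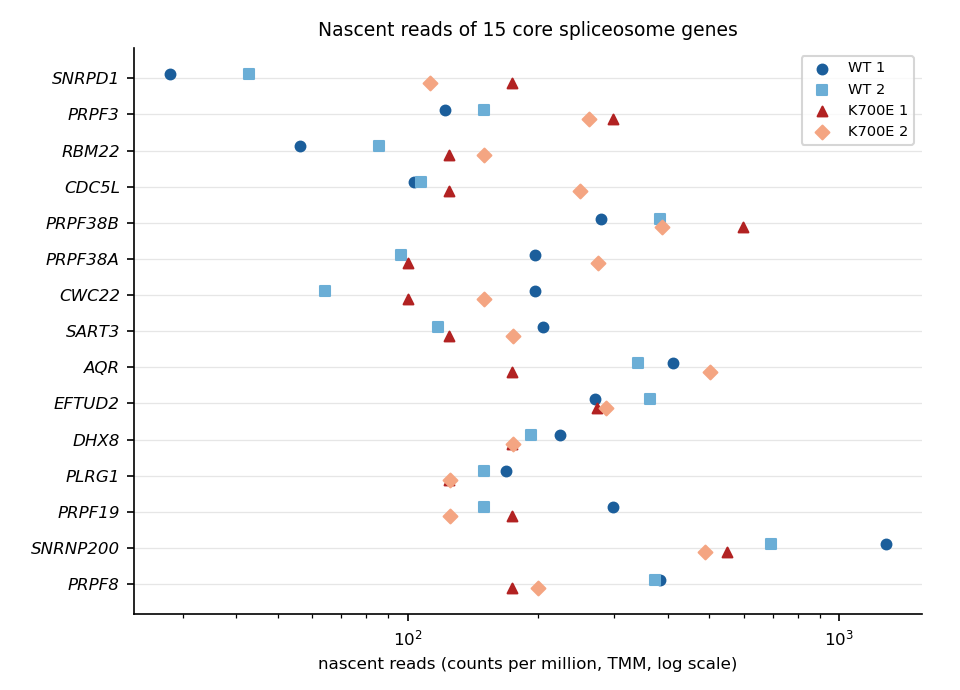
Nascent reads per gene (x axis, CPM with TMM factors, log scale) in the 15 tested members (y axis, ordered by fold change), 1 point per sample. SNRPD1, at the top, has both K700E samples at 113 and 175 against 28.1 and 42.8 in WT, and PRPF8, at the bottom, has them at 175 and 200.1 against 384 and 374.

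The neighbouring parts of the machinery give the setting for these counts. Of the 12 genes of the U2 particle, 5 were tested for efficiency, all 5 lower on average in K700E, 2 without overlap, with a median of -4.65 points. Among all 5082 genes tested, 3172 were lower and 1909 higher, with a median of -2.54 points, and 21.1% were lower without overlap. Of 14 branch site partners 8 were tested, 3 lower and 5 higher, with a median of 0.81 points. Without overlap, 1 of the 8 was lower and 2 were higher. Of 31 other spliceosome genes 14 were tested, 9 lower and 5 higher, with a median of -4.72 points. Without overlap, 6 of the 14 were lower and 2 were higher, where 10.3% of all genes tested were higher without overlap. No gene of these lists passed in edgeR's test, and 0 of the U2 genes, 1 of the branch site partners and 0 of the other spliceosome genes had an unadjusted p under 0.05. By the same test, nascent reads were compared for 4, 8 and 11 genes of these lists, and none passed. The difference between the 38 genes and these lists was not tested.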

How the data were processed

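Per sample, the authors deposited read counts for each annotated intron (reads over it and reads with its junction) and their ratio; per the submitters' processing notes, reads were trimmed with cutadapt and mapped with minimap2 to hg38, with versions not given in the sources used here. Tables of RNA 3′ end positions, whose rows have no identifiers, were not used. Rows were placed on GENCODE 29 introns (87.3 to 87.6% of rows). Unplaced rows were left out, unique introns were counted once, and ratios above 1 were set to 1. The 38 genes and all lists were chosen with earlier results of these data known. Efficiency was tested with edgeR 4.0.16 (R 4.3.3), quasi-likelihood, on spliced and unspliced columns with a coefficient per sample, over introns or genes with at least 10 reads or overlaps in every sample. The dispersion was 0 for introns and estimated for genes. Nascent reads were tested with TMM and filterByExpr. DESeq2 1.42.0 and limma-voom (limma 3.58.1), among others, were alternatives. P-values were adjusted over all introns or genes by Benjamini-Hochberg. All 38 genes were named; introns that reached 10 reads in all samples were named if they passed the test, were among the 12 largest differences without overlap, the 6 most read or the 6 least removed in WT, and other introns were chosen after their values were seen. On simulated data with 200 features changed, an odds ratio of 2 on the log2 scale was recovered for 14% of introns and 88% of genes. A nascent read change of 2 on that scale was recovered for 50%. Unchanged features called numbered 1 for introns, 7 for genes and 10 for nascent reads. Simulated splicing had counting error only, with each overlap drawn independently and no spread between samples. The recovery for introns and genes therefore does not carry over to samples that differ as these do. The in-file labels of the K700E tables read MUT2 and MUT3, and samples were taken as GEO assigns them. Replicate numbers were not used to pair the samples in the main fits (see the closing section).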

Additional observations from a re-analysis of the deposited data

How the results depend on the processing

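No member gene or intron passed a false discovery rate of 0.05 under any setting run. Over all introns, 5 passed for efficiency, against 3 with the replicate block, 1 with an estimated dispersion, 0 with DESeq2, 0 with DESeq2 and size factors of 1, 0 with limma-voom, 2 with K700E replicate 1 left out and the filter applied again, and 0 to 10 with 1 sample left out. Over all genes, 0 passed for efficiency, against 2 with DESeq2, 1 with size factors of 1 and 1 over the most used introns. For nascent reads 0 genes passed, against 3 with the replicate block, 5 with no filter on low counts, and 0 to 274 with 1 sample left out, the 274 without WT replicate 2 and 11 without WT replicate 1. Where 1 sample is left of a group, it is assumed to vary like the other group. The mean difference over the member introns was 2.38 points, and -0.62 points at 5 reads. The replicate numbers are shared, but nothing in the labels pairs them. Deviations of samples with the same number correlated at -0.06 (efficiency) and -0.003 (nascent reads), and the block changed no other call. Counting error weakens such correlations, so they cannot decide whether samples of the same number were paired.

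With 1 sample left out, these gene differences changed sign, in percentage points from lowest to highest: SNRNP70 -27.4 to 23.0, SNRPD1 -8.76 to 19.8, SNRPG -19.6 to 9.99, PRPF3 -8.73 to 6.19, PRPF4 -40.6 to 9.08, DDX23 -22.7 to 12, USP39 -14.2 to 21.2, PRPF38A -15.3 to 6.77, PRPF38B -0.16 to 10.2, AQR -1.27 to 3.99, RBM22 -1.55 to 10.5, SLU7 -21.8 to 6.25 and CDC40 -0.37 to 3.53. So did these introns: PRPF38B intron 2 from -3.76 to 4.57 and intron 3 from -4.28 to 17.2, and SNRNP200 intron 26 from -18.3 to 14.5, intron 23 from -5.91 to 13.4, intron 9 from -4.71 to 1.95 and intron 7 from -3.95 to 3.20. With K700E replicate 1 left out and the filter applied again, PRPF38B introns 2 and 3 stood at -2.13 and -4.28 and SNRNP200 intron 23 at -2.18. That setting, size factors of 1, and the counts of non-overlapping genes for K700E replicate 2 alone and over the most used introns were chosen after seeing the data; the test over the most used introns was planned. Log2 fold changes of nascent reads ran from -0.35 to 0.071 for EFTUD2, -0.38 to 0.42 for SART3 (0.073 with limma-voom), -0.56 to 1.11 for PRPF38A, -1.10 to 0.41 for AQR and -0.56 to 1.05 for CWC22 (0.15 with the replicate block, 0.28 with limma-voom), and DHX8 stood at 0.051 by the sum of overlaps. The cause was not tested. Without changing sign, gene differences ran from -34.3 to -5.34 for PRPF8, -30.6 to -6.05 for PRPF6, -26.0 to -4.88 for DHX8, 7.60 to 29.9 for CDC5L and 0.45 to 1.58 for SNRNP200. Depth limits the intron counts: 7717 introns had 10 reads in K700E replicate 1.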
